A study of Mus musculus with 6 samples.

Results

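Ileal bile acid genes and genes that mark position along the gut were examined in crypt epithelium of mice, the cell layer that lines the crypts of the intestine. The 10 genes were taken by symbol from the 24930 genes of the table. They are Fabp6, Slc10a2, Slc51a, Slc51b, Fgf15, Nr1h4 and Nr0b2, which serve bile acid transport and sensing, and Gata4, Onecut2 and Osr2, which encode transcription factors with regional expression. RNA was sequenced from 3 libraries of β-catenin GOF/+ crypts (called mutant here), in which 1 β-catenin allele had been turned into a gain-of-function allele 4 days earlier, and from 3 libraries of control crypts. All 6 libraries are labelled as epithelium. The sources used here do not give the gut segment, the Cre driver, the inducing agent, strain or age, nor the genotype and treatment of the controls. They also do not say if each library is its own animal, so p-values reflect library-to-library spread that may be partly technical.

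Bile acids are made in the liver, released into the duodenum and recovered in the terminal ileum. Ileal enterocytes take them up through the apical carrier encoded by Slc10a2, carry them through the cytosol on the binding protein encoded by Fabp6, and export them through a basolateral carrier of paired subunits, encoded by Slc51a and Slc51b. Inside the cell they bind the nuclear receptor FXR, encoded by Nr1h4, which acts on inverted repeats of the hexamer AGGTCA and induces Fabp6, both Slc51 genes, Nr0b2 and Fgf15. Fgf15 is a hormone that travels to the liver and lowers bile acid synthesis. Gata4 is present in the proximal and middle small intestine, where it keeps ileal bile acid genes low, and its loss there is known to raise Fabp6 and Slc10a2. These genes are known mainly from mature enterocytes of the villus, so their RNA in a crypt preparation can come from crypt cells or from more mature cells carried along.

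Promoter windows of 250 bases before the gene start were read for the 6 genes found in the RefSeq promoter table of GRCm38.p6 (Fabp6, Slc10a2, Slc51a, Slc51b, Nr1h4 and Nr0b2). They were searched on both strands for the FXR inverted repeat, the hexamer AGGTCA and its reverse complement on either side of a base of any kind, with up to 2 mismatches in the hexamers. Fabp6 was the 1 gene of the 6 with a match, and its window held 2 of them, at 222 to 210 and at 142 to 130 bases before the start, each with 2 mismatches. Such a match was present in 0.959% of the 32850 windows of this length in the table. The windows of Fabp6 (chr11:43601563-43601812, minus strand), Slc10a2 (chr8:5105288-5105537, minus strand) and Slc51b (chr9:65422774-65423023, minus strand) are shown because these are the 3 genes whose mutant and control values did not overlap upward. Capitals mark the matches to the inverted repeat.
Fabp6: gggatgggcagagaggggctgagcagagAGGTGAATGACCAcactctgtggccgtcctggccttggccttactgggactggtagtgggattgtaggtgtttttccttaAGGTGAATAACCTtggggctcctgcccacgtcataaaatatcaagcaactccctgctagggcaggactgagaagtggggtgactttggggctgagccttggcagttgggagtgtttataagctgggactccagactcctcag
Slc10a2: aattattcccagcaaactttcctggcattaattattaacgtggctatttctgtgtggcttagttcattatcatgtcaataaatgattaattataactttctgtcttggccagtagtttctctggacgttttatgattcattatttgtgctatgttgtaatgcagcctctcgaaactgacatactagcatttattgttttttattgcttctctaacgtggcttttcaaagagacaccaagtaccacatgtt
Slc51b: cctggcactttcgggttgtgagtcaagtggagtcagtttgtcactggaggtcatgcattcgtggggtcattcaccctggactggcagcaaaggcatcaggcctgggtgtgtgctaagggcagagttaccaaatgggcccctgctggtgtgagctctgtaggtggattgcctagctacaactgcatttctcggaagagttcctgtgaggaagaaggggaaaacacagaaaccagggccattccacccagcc
The GATA motif (GATAA or GATAG after an A or a T, either strand) was found in 4 of the 6 windows (Slc10a2, Slc51a, Nr1h4 and Nr0b2) against 26.5% of all windows. A match describes letters, not a bound site, and a window without one says only that these letters are not in it.

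Abundances below are in the units of the deposited table, which the authors had normalized. Depth, as reads per unit relative to control replicate 1, was lowest in mutant replicate 3 (0.886) and highest in control replicate 3 (1.42). For 8 of the 10 genes, all but Nr1h4 and Gata4, the 6 values stood in whole-number ratios once this depth was taken into account, to within 0.001 of a whole number. The smallest such whole numbers are given below as reads. They are the reads behind a value, or a fixed fraction of them. Alpha-defensins, products of Paneth cells, took between 11.1 and 49.9% of all units in a library. By Xist and Y-linked genes, 2 control libraries and 1 mutant library were male. Ctnnb1 itself, over the whole gene, stood at 246, 248 and 273 units in control replicates 1 to 3 and at 262, 236 and 285 units in mutant replicates 1 to 3, which overlap, and this value does not measure the mutant allele.

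Markers of stomach and of colon were mostly at or near 0. Of 7 stomach genes in the table, 3 were listed at 0 in every library and none exceeded 0.577 units. Of 9 colon genes, Car1 and Hoxd13 were listed at 0 in every library and 4 more stayed at or below 0.404 units, while Car4 and Retnlb were present. Pdx1, a transcription factor gene of the duodenum, reached at most 0.376 units. Gata4, of the proximal and middle small intestine, and Fabp6, of the ileum, were both detected in every library. Whether 1 segment or several were sampled was not tested.

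Fabp6 RNA was higher in mutant than in control crypts, with a wide spread inside each group. It stood at 156, 5.74 and 74.2 units in control replicates 1 to 3 and at 174, 388 and 1101 units in mutant replicates 1 to 3. Every mutant value lay above every control value, although mutant replicate 1 and control replicate 1 were close. The group means were 78.6 ± 75.1 and 555 ± 486 units (SD, n = 3 each), a 7.06-fold ratio. The log2 difference was 3.30 ± 1.20 (SE, 95% interval 0.45 to 6.14) and did not pass the test over all genes (adjusted p = 0.589 in limma, unadjusted p = 0.0292). Log2 differences here and below are on the log2(value + 1) scale. The lowest value, that of control replicate 2, rests on 27 reads (exact Poisson 95% interval 17.8 to 39.3, counting error only), against 712 reads in control replicate 1 and 4458 in mutant replicate 3. Fabp6 thus spanned 192-fold between libraries. Among the 3 control libraries alone its SD on the log2 scale was 2.38, larger than that of 99.9% of the 11837 genes tested, whose median was 0.18. Without control replicate 2 the log2 difference was 1.96 (adjusted p = 0.892 in limma).

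Slc10a2, the gene of the apical carrier that brings bile acids into ileal enterocytes, was likewise higher in mutant crypts. Its values were 5.07, 2.38 and 3.13 units in control replicates 1 to 3 and 7.89, 5.35 and 28.4 units in mutant replicates 1 to 3. The groups did not overlap, but mutant replicate 2 stood just above control replicate 1 and mutant replicate 3 stood far above all others. The means were 3.53 ± 1.39 and 13.9 ± 12.6 units, and the log2 difference was 1.43 ± 0.56 (adjusted p = 0.589 in limma). Between 140 and 1438 reads lay behind these values. Without mutant replicate 3 the log2 difference was 0.77 (adjusted p = 0.814 in limma).

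Of the subunits of the basolateral exporter, Slc51b was without overlap between the groups and Slc51a was not. Slc51b, which encodes the smaller subunit OSTβ, stood at 34.6, 44.9 and 66.9 units in control and at 125, 68.2 and 291 units in mutant replicates 1 to 3. The groups did not overlap, with control replicate 3 and mutant replicate 2 next to each other. The log2 difference was 1.51 ± 0.52 (adjusted p = 0.589 in limma), and 0.96 without mutant replicate 3 (adjusted p = 0.814 in limma). Slc51a, which encodes OSTα, the subunit with membrane-spanning segments that form the transport path, stood at 79.0, 73.5 and 151 units in control and at 178, 75.1 and 210 units in mutant replicates 1 to 3. Here the groups overlapped, because mutant replicate 2 was at the level of the lower control libraries. The log2 difference was 0.56 ± 0.45 (95% interval -0.50 to 1.61, adjusted p = 0.644 in limma), and it was 0.27 without mutant replicate 3 and 1.01 without mutant replicate 2. Within a library, Slc51b relative to Slc51a was 0.438, 0.611 and 0.443 in control replicates 1 to 3 and 0.701, 0.909 and 1.39 in mutant replicates 1 to 3. The ratio was 0.497 ± 0.0980 in control and 1.00 ± 0.353 in mutant libraries (SD, n = 3 each). Its 3 mutant values all lay above the 3 control values, at a two-sided exact permutation p of 0.1, the smallest that 3 against 3 libraries can give. This ratio was chosen after the values were seen.

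**Figure D1:**
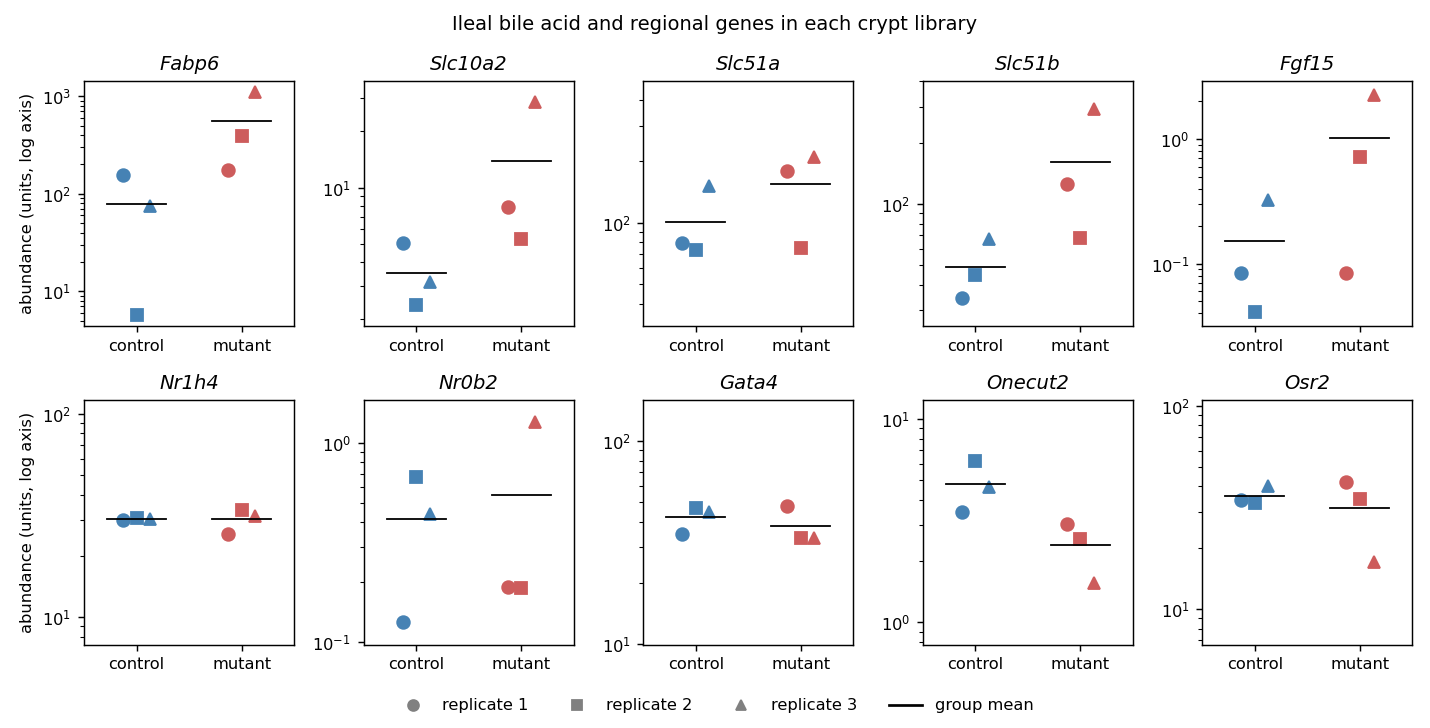
Abundance in units (log axis, scaled separately for each gene) of the 10 genes in the 3 control and 3 mutant libraries; point shapes give the replicate number and bars the group mean. Fabp6, Slc10a2 and Slc51b lie higher in all 3 mutant libraries, Onecut2 lies lower, and Nr1h4 is level at about 30.3 units in both groups.

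Nr1h4, which encodes the receptor FXR, was the steadiest of the 10 genes. It stood at 29.9, 30.6 and 30.5 units in control and at 25.7, 33.5 and 31.5 units in mutant replicates 1 to 3. The mutant values fell on both sides of the control values. The means were 30.3 ± 0.394 and 30.3 ± 4.02 units, with a log2 difference of -0.01 ± 0.14 (95% interval -0.35 to 0.33, adjusted p = 0.981 in limma), so the interval leaves room for a change of that size in either direction. The spread of Nr1h4 among control libraries was smaller than that of all but 0.786% of the genes tested.

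The FXR target genes Fgf15 and Nr0b2 were close to the limit of detection, below the mean of 1 unit needed for a test. Fgf15, the hormone gene, stood at 0.0845, 0.0411 and 0.326 units in control replicates 1 to 3 and at 0.0849, 0.718 and 2.24 units in mutant replicates 1 to 3. Mutant replicates 2 and 3 were above all control libraries, while mutant replicate 1 was level with control replicate 1. These values rest on 2, 1 and 11 reads in control and 2, 23 and 47 reads in mutant replicates 1 to 3. Nr0b2 encodes SHP, a nuclear receptor without a DNA-binding domain that represses other receptors, and stood at 0.126, 0.672 and 0.441 units in control and at 0.189, 0.186 and 1.28 units in mutant replicates 1 to 3. The groups overlapped, with mutant replicate 3 highest at 18 reads and control replicate 1 lowest at 2 reads. With no filter on low values the log2 differences were 0.67 for Fgf15 and 0.08 for Nr0b2 (adjusted p = 0.671 and 0.927 in limma).

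Of the regional transcription factor genes, Onecut2 was lower in mutant crypts and Gata4 and Osr2 overlapped between the groups. Onecut2, a cut-homeobox factor gene of the proximal gut, stood at 3.49, 6.23 and 4.62 units in control and at 3.03, 2.57 and 1.55 units in mutant replicates 1 to 3. Every mutant value was below every control value, with mutant replicate 1 and control replicate 1 closest. The means were 4.78 ± 1.38 and 2.39 ± 0.756 units, and the log2 difference was -0.77 ± 0.25 (95% interval -1.36 to -0.18, adjusted p = 0.589 in limma). Between 267 and 1276 reads lay behind these values. It lay between -0.94 and -0.58 when each library was left out.

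Gata4, which holds back the ileal programme in the jejunum, stood at 34.9, 46.6 and 44.5 units in control and at 48.0, 33.2 and 33.3 units in mutant replicates 1 to 3. Mutant replicate 1 was the highest library and mutant replicates 2 and 3 the lowest, so the groups overlapped on both sides. The log2 difference was -0.15 ± 0.20 (95% interval -0.62 to 0.33, adjusted p = 0.777 in limma). Osr2, an odd-skipped zinc finger factor gene, stood at 34.3, 33.0 and 40.2 units in control and at 42.0, 34.8 and 17.0 units in mutant replicates 1 to 3. Mutant replicate 3 alone was low, and without it the log2 difference went from -0.28 ± 0.32 to 0.10 (adjusted p = 0.735 and 0.968 in limma).

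**Figure D2:**
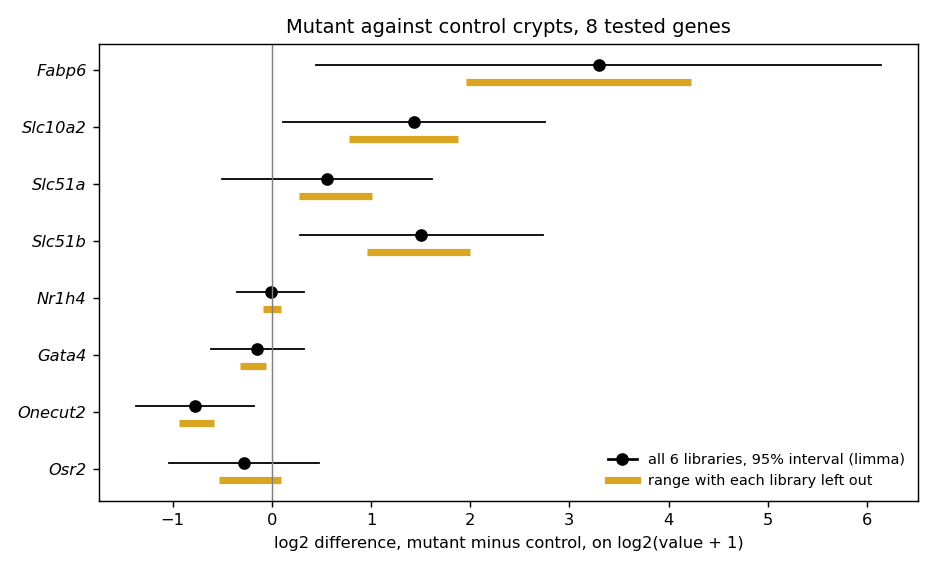
Log2 difference of mutant minus control, on log2(value + 1), for the 8 genes that were tested: black points and lines are the estimate from all 6 libraries and its 95% interval in limma, and yellow bars span the estimates with each library left out in turn. The interval lies above 0 for Fabp6 (0.45 to 6.14), Slc10a2 and Slc51b and below 0 for Onecut2 before adjustment for the number of genes, and 0 of these passed after it.

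Counted together, 0 of the 10 genes passed the test at an adjusted p under 0.05 in either direction in limma, where 8 of them had a mean of at least 1 unit and were tested. Over all 11837 genes tested 0 were called higher (0%) and 2 lower (0.0169%). Before adjustment, 3 of the 8 tested were higher and 1 was lower at a limma p under 0.05. Of all genes tested, 4.72% were higher and 3.59% lower. Groups were free of overlap with the mutant libraries on top for 3 of the 8 tested and below for 1, against 8.34% and 8.37% of all genes tested. The median log2 difference was 1.43 over the 5 tested bile acid genes and -0.28 over the 3 regional factor genes, beside -0.02 over all genes tested. The genes were chosen with results of these data known, so these counts are a description.

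Markers of mature enterocytes, the cells known to express the bile acid genes, also moved between libraries. The mean log2(value + 1) of 12 enterocyte markers was 7.51, 7.81 and 8.87 in control and 9.19, 7.92 and 9.71 in mutant replicates 1 to 3, so the groups overlapped. Of these markers 11 were higher and 1 lower in mutant crypts, by a median log2 of 1.00, with 0 called and 0 free of overlap between the groups. Fabp2, the fatty acid binding protein gene of enterocytes in general, stood at 665, 952 and 1945 units in control and at 3419, 1354 and 6679 units in mutant replicates 1 to 3. The order of Fabp6 was different, since control replicate 1 had the fewest enterocyte markers and the most Fabp6 of the control libraries, and mutant replicate 2 had fewer enterocyte markers than control replicate 3 and 388 units of Fabp6 against 74.2. Relative to Fabp2, Fabp6 was 0.234, 0.00603 and 0.0381 in control and 0.0510, 0.287 and 0.165 in mutant replicates 1 to 3. These overlap (two-sided exact permutation p = 0.4, smallest possible 0.1). This ratio, like that of Slc51b to Slc51a, was not set in advance. In bulk RNA, more cells of a type and more RNA per cell cannot be told apart.

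With log2 values taken relative to the enterocyte marker mean of each library, the median of all genes tested moved from -0.02 to -0.90, and differences on that scale are read against it. The log2 difference was then 2.42 ± 0.74 for Fabp6 (adjusted p = 0.381 in limma), 0.55 for Slc10a2, 0.63 for Slc51b and -0.32 for Slc51a (adjusted p of 0.578, 0.510 and 0.710 in limma). All 4 lay above the median of all genes, Slc51a between that median and 0. This was so before the change of scale too, because it lowers every gene by the same amount. The distance of a gene from the median is therefore no new result. Onecut2 stood at -1.65, Gata4 at -1.02, Nr1h4 at -0.89 and Osr2 at -1.16 on this scale (adjusted p = 0.475 for each in limma). By library, Fabp6 minus the enterocyte mean was -0.217, -5.06 and -2.64 in control and -1.74, 0.684 and 0.394 in mutant replicates 1 to 3. These overlap, as do those of Slc10a2 and Onecut2. Slc51b stayed without overlap, at least -2.218 in mutant against at most -2.295 in control libraries. Slc51a was lower, at most -1.67 in mutant against at least -1.621 in control libraries.

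**Figure D3:**
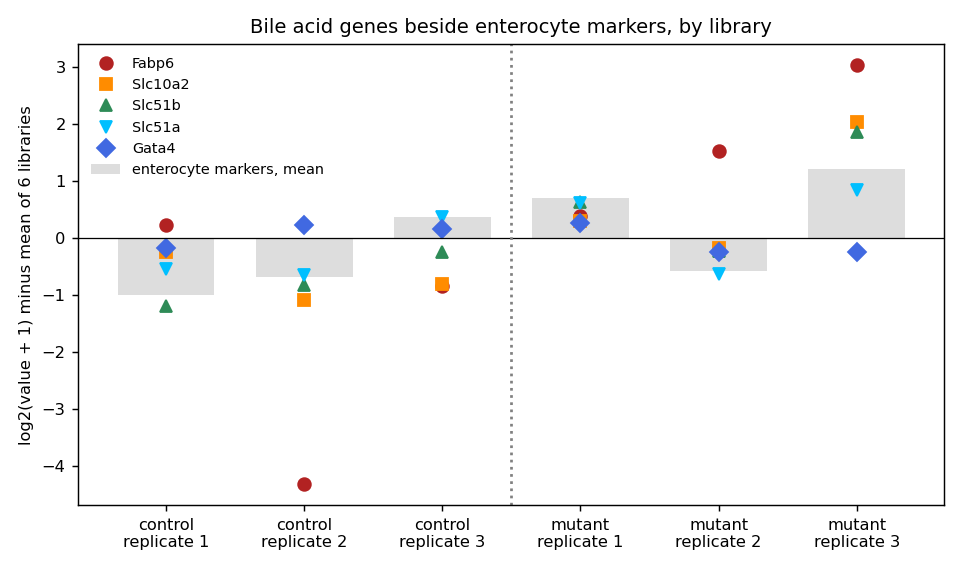
Log2(value + 1) minus its mean over the 6 libraries (vertical axis) for 5 of the genes (points) and for the mean of 12 enterocyte markers (grey bars), by library. Slc51a stays close to the bars, Gata4 stays near 0, and Fabp6 leaves the bars most in control replicate 2 and mutant replicate 2, where the bars are both below 0.

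Other cell types also differed between the libraries. The stromal list held 9 genes, among them collagen genes of fibroblasts. Sums over this list lay between 4.97 and 8.10 units across control libraries, against 20.0 to 43.6 units across mutant libraries. All 9 of them were higher in all 3 mutant libraries. The 8.34% of all genes tested is no like comparison for this, because the tested set was filtered by level. Only 6 of the 9 reached the mean of 1 unit, 5 of them through their mutant values alone, and 0 were called in limma. The other of the 6 was Vim, which made up most of each control sum (at least 4.53 units). The control sums are therefore mostly a measure of Vim, not of the other stromal genes. The ratio of mutant to control means was 1.72 for Vim. For those 5 genes it ran from 8.26 (Dcn) to 119 (Mgp), on low control values. No control library exceeded 0.820 units for any of the 5 (Dcn), and no mutant library fell below 1.58 units (Col1a2). Pdgfra, a defining gene of stromal cells, was listed at 0 in the 3 control libraries and reached at most 0.204 units in mutant libraries. The summed level of 8 immune genes was 27.0 to 64.9 units in control and 24.8 to 103 units in mutant libraries, and that of 6 crypt base stem cell genes was 610 to 1422 and 145 to 902 units. Paneth cell genes were lower on average in mutant crypts for 7 of 7 genes, by a median log2 of -1.49. Of these, 0 were called and 0 were free of overlap between the groups. Their mean log2(value + 1) was 14.52, 12.37 and 12.42 in control and 11.11, 12.47 and 10.88 in mutant replicates 1 to 3. Control replicate 1 was thus the highest, and mutant replicate 2 stood just above control replicates 2 and 3. Mutant replicate 3, the library with the highest Fabp6, Slc10a2, Slc51a, Slc51b, Fgf15 and Nr0b2 and the lowest Onecut2 and Osr2, also had the highest sums of enterocyte, stromal and immune genes and the lowest sum of stem cell genes. Olfm4 made up most of the stem cell sum in the other libraries and stood at 54.6 units in mutant replicate 3. Lgr5, Ascl2, Smoc2 and Slc12a2 were lowest there too, while Axin2 was highest there at 35.4 units. The part of these cells in the differences above was not tested. Between male libraries (2 control, 1 mutant) the log2 difference was 2.43 for Fabp6, 0.97 for Slc10a2, 1.64 for Slc51b and -0.50 for Onecut2, and between female libraries (1 control, 2 mutant) it was 3.12, 1.73, 1.06 and -0.89. Slc51a stood at 1.22 between male and -0.26 between female libraries, Gata4 at 0.24 and -0.41, and Osr2 at 0.31 and -0.70, so their direction differed with the libraries compared.

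**Figure D4:**
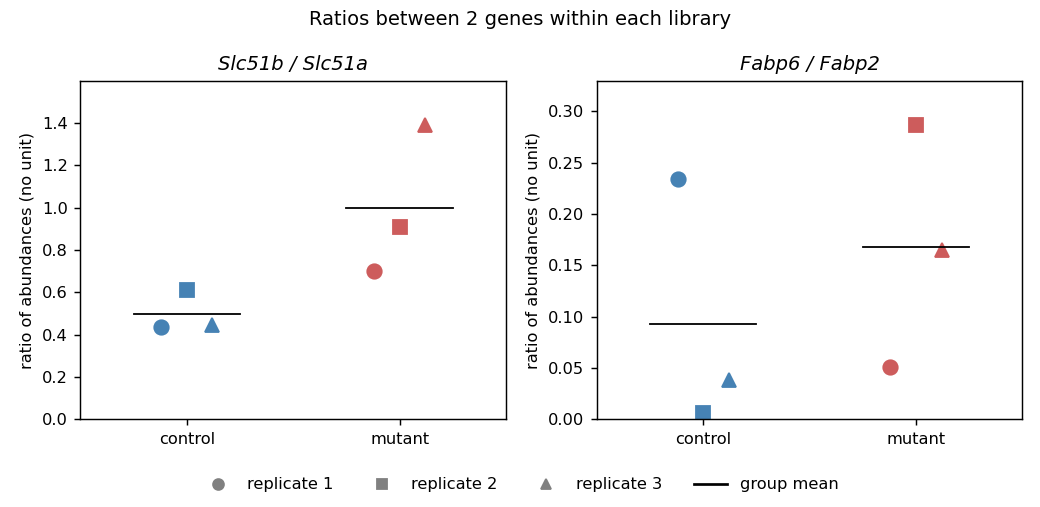
Ratio of Slc51b to Slc51a (left) and of Fabp6 to Fabp2 (right) within each library, on linear axes that start at 0; point shapes give the replicate number and bars the group mean. The Slc51b to Slc51a ratio is at most 0.611 in control and at least 0.701 in mutant libraries, while the Fabp6 to Fabp2 ratio overlaps.

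Genes that work with FXR or handle bile acids and sterols were followed as a list of 33, of which 25 reached a mean of 1 unit. Of these 25, 0 were called in either direction in limma, 13 were higher and 12 lower, and the median log2 difference was 0.04. The groups did not overlap for 2 higher and 3 lower genes of the 25, counts near the 8.34% and 8.37% of all genes tested, so nothing about the list is read from them. Hnf4a, the factor gene that sustains the enterocyte programme, averaged 240 ± 34.0 units in control libraries against 246 ± 26.8 units in mutant ones, and its paralogue Hnf4g 106 ± 31.0 against 87.9 ± 29.9 units. Vdr, the vitamin D receptor gene whose product also binds secondary bile acids, stood at 82.7, 135 and 122 units in control and at 95.7, 69.3 and 45.0 units in mutant replicates 1 to 3 (log2 difference -0.72, adjusted p = 0.589 in limma). Abcg5, the gene of a sterol exporter subunit, stood at 64.6 ± 32.1 and 99.5 ± 34.8 units. The 5 genes without overlap, named after their values were seen, were Ephx1 and Nr1h2, which were higher, and Rxrb, Nr5a2 and Prox1, which were lower. Ephx1, a microsomal epoxide hydrolase gene, stood at 6.43, 8.63 and 8.60 units in control and at 14.8, 21.8 and 56.4 units in mutant replicates 1 to 3 (log2 difference 1.64, adjusted p = 0.589 in limma). Nr5a2 encodes LRH-1, a receptor that SHP represses, and stood at 18.0, 24.9 and 18.4 units in control and at 14.8, 16.0 and 4.32 units in mutant replicates 1 to 3. The liver enzyme gene Cyp8b1 was listed at 0 in every library.

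Other regional genes were compared next to the 10. Of 13 genes of the proximal small intestine 12 were tested, 9 higher and 3 lower, by a median log2 of 0.25, and all of them overlapped between the groups. The lipid carrier genes Fabp1 and Apoa4 stood at 1131 ± 627 and 670 ± 249 units in control and at 1579 ± 559 and 1757 ± 1560 units in mutant libraries. The retinol carrier gene Rbp2 stood at 1010 ± 302 and 1305 ± 676 units. All 8 other genes of the distal small intestine were tested and all 8 were higher, by a median log2 of 1.03, but each of them overlapped between the groups and 0 were called. Over all 11837 genes tested, 5600 were higher, 8.34% were free of overlap with the mutant libraries on top and 0 were called higher. The 12 enterocyte markers had a like median log2 of 1.00, with 11 higher. A shift of region was not tested. Amn, a subunit of the receptor for vitamin B12 uptake in the ileum, stood at 10.3, 14.9 and 25.2 units in control and at 34.2, 19.7 and 54.0 units in mutant replicates 1 to 3 (log2 difference 1.03, adjusted p = 0.589 in limma). Mep1b, a brush border protease gene, stood at 174 ± 106 and 421 ± 262 units, Clec2h at 246 ± 84.8 and 345 ± 129 units, and the glucagon precursor gene Gcg of L cells at 49.1 ± 12.2 and 53.9 ± 14.0 units. Among colon genes, the carbonic anhydrase gene Car4 stood at 272, 223 and 396 units in control and at 200, 189 and 141 units in mutant replicates 1 to 3, which do not overlap (log2 difference -0.72, adjusted p = 0.589 in limma). Retnlb, a goblet cell gene of the resistin-like family, stood at 84.7, 22.9 and 0.644 units in control and at 1.45, 18.5 and 19.2 units in mutant replicates 1 to 3.

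The genes most like Fabp6 and Gata4 over the 6 libraries were found by the root mean square difference between profiles of log2(value + 1), each centred on its mean, among 8885 genes with a mean of at least 5 units. The nearest to Fabp6 were Socs3, Reg3g, B3galt5, C3 and H2-Q8, at differences of 1.21 to 1.31, where a flat profile would differ by 2.28. Socs3, a feedback inhibitor gene of cytokine signalling, stood at 9.69, 3.20 and 10.2 units in control and at 20.1, 15.7 and 94.4 units in mutant replicates 1 to 3. Reg3g, an antimicrobial lectin gene, stood at 1413, 503 and 3545 units and at 4090, 3520 and 10680 units in the same order. Like Fabp6, both were lowest in control replicate 2 and highest in mutant replicate 3. Of the bile acid genes, Slc10a2 came 37th in this order at 1.56, Slc51b 157th at 1.78, Slc51a 874th at 2.04 and Nr1h4 3601st at 2.26, the last close to the value of a flat profile. The nearest to Gata4 were P2ry1, Hgsnat, Snx13, Gpr35 and Erlin2, at differences of 0.03 to 0.06 against 0.22 for a flat profile. The profiles share libraries, depth and cell composition, and the likeness is a description of these 6 libraries.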

How the data were processed

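Messenger RNA was purified on poly-T beads and sequenced from 6 crypt epithelium libraries, 3 per group, per the labels' protocols. The deposited table holds a signal that the authors had normalized. The submitters' processing notes name kallisto 0.46.1, DESeq2 1.40.1 and mm9, with no role or order. Columns were assigned to samples through their group word and number (the mutant ones as the only columns not called control), and 0 were left without a sample. Totals ranged from 645225 to 1268771 units, and 0% of values above 0 were whole numbers (tolerance 1e-06). Whole-number ratios between libraries could be recovered for only 56.0% of the tested genes, so a count model was not run. Reads per unit of a gene followed the length of its longest GENCODE transcript (Spearman rho 0.82 over 6537 genes), so units are taken as per length.

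Values x were tested as log2(x + 1) in limma 3.58.1 (R 4.3.3) with a mean-variance trend. The 11837 genes averaging 1 unit or more were fitted together, with Benjamini-Hochberg adjustment at 0.05, and only the rows of interest are printed. The fit was also run on simulated data, whose outcome is not reported here and is not used. Alternatives were 2 rescalings, values relative to enterocyte markers, dropping the filter or raising it to 5 units, a pseudocount of 0.1 or 5, array weights, a replicate block, sex as a covariate, and leaving out each library. Named are the 10 genes, the 4 genes with the highest mean of each other list and the 5 genes nearest in pattern to Fabp6 and to Gata4; genes outside this rule were picked with their values in view, 2 genes that the rule names are not reported here, and 5 stomach and colon genes that it names are given within their lists' ranges only. The genes and lists were chosen with earlier results of these data known. Exact permutation tests used all 20 splits. Promoters came from RefSeq (GRCm38.p6), a build other than mm9. Python 3.11.15, pandas 2.3.3, NumPy 2.4.6, SciPy 1.17.1 and matplotlib 3.10.9 were used.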

Additional observations from a re-analysis of the deposited data

How the results depend on the processing

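Of the 10 genes, 0 were called higher and 0 lower in limma under every one of the 16 alternatives. Fabp6, Slc10a2, Slc51b and Onecut2 kept their direction under every alternative in which they were tested, with adjusted p between 0.0945 (Slc51b, array weights) and 0.921 in limma. Their lowest and highest log2 differences were 1.66 and 4.23 for Fabp6, 0.55 and 1.88 for Slc10a2, 0.63 and 2.00 for Slc51b and -1.65 and -0.40 for Onecut2. The values 0.55, 0.63 and -1.65 were taken relative to the enterocyte mean, which lowers every gene by the same amount, so -1.65 is not a stronger decrease of Onecut2. Relative to the enterocyte mean, a scale on which the median of all genes was -0.90, log2 differences above 0 became -0.32 for Slc51a, -0.84 for Hnf4a, -0.22 for Abcg5, -0.32 for Fabp1, -0.59 for Rbp2, -0.41 for Clec2h and -0.75 for Gcg. Because every gene is lowered by the same amount there, the place of a gene relative to the median cannot change. That scale therefore does not test their direction relative to other genes. With array weights, whose estimate stopped before converging, log2 differences turned to 0.21 for Gata4, 0.18 for Osr2 and 0.31 for Hnf4g. With each library left out in turn, log2 differences spanned 0, from -0.086 to 0.097 for Nr1h4, -0.53 to 0.097 for Osr2, -0.056 to 0.15 for Hnf4a, -0.067 to 0.32 for Gcg, -2.20 to 0.66 for Retnlb and -0.10 to 0.63 for Rbp2. The cause was not tested, and 0 of these genes were called in the fits named here.

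Over the whole table, 0 genes were called higher and 2 lower in limma. The counts were 1 lower with the upper quartile, 11 lower relative to the enterocyte mean, 0 lower with no filter, 1 higher with a pseudocount of 0.1, 1 higher and 0 lower with a pseudocount of 5, 20 higher and 7 lower with array weights, 0 lower with the sex covariate, and between 0 and 2 higher and 0 and 3 lower when each library was left out. With the replicate block 0 were called higher and 0 lower. The deviations of same-numbered libraries from their group mean correlated at -0.292, 0.333 and 0.325. Control replicate 1 correlated best with mutant replicate 2, while control replicates 2 and 3 correlated best with the mutant library of their own number. Deviations within a group sum to 0, so these correlations are not independent. They do not settle whether the numbers pair the libraries, and the labels do not say. Fgf15 and Nr0b2 rest on 1 to 47 and 2 to 18 reads, which limits the precision of their values.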
